A study of Mus musculus with 28 samples.

Results

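Metallothioneins and the proteins that carry zinc across membranes were followed in the liver of male Lep ob/ob mice fed a diet used to induce steatohepatitis. The 8 genes described are the metallothioneins Mt1 and Mt2, the metal-responsive transcription factor Mtf1, the zinc importers Slc39a14, Slc39a4 and Slc39a8, and the zinc exporters Slc30a1 and Slc30a10. They were matched by symbol to their Ensembl mouse gene identifiers, and each of the 8 had 1 row among the 21935 genes counted. The genes were chosen on values measured in these same mice, in the same 3 comparisons given below, so their differences between groups are given as a description with an interval and without a p-value.

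The 28 animals were B6.V-Lepob/JRj males, which carry the ob mutation and make no functional leptin, obtained at 5 weeks of age. Every mouse was fed the AMLN diet, which supplies much fat, fructose and cholesterol, during 14 weeks and stayed on it during treatment, so vehicle mice share the mutation and the diet with treated mice and there was no lean or chow-fed group among these libraries. Treatment was oral, once daily for 2 weeks, with vehicle (n = 10), OCA at 30 mg/kg (n = 9) or INT-787 at 30 mg/kg (n = 9). OCA, obeticholic acid, is a modified bile acid. Both compounds activate the farnesoid X receptor FXR, the nuclear receptor for bile acids. Poly(A) RNA of whole liver was sequenced, 1 library per mouse, so that fewer cells of a type and less RNA per cell cannot be told apart.

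Metallothioneins are small cysteine-rich proteins that bind zinc and copper, buffer free zinc in the cytosol and can take up reactive oxygen. When free zinc rises, MTF1 binds metal response elements in the promoters of Mt1, Mt2 and Slc30a1 and raises their transcription, and glucocorticoids and interleukin 6 also induce metallothioneins in the liver. ZIP proteins, encoded by Slc39a genes, bring metal into the cytosol, and ZnT proteins, encoded by Slc30a genes, carry it out of the cell or into vesicles.

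Mt1 and Mt2 were lower in livers of mice given INT-787 than in those given vehicle or OCA, and Mtf1 and the 3 importers stayed within intervals that included or lay near 0. In the comparison of INT-787 with vehicle, 2 of the 8 genes passed the threshold, both lower, where 19.6% of all 12580 genes tested were called. With OCA against vehicle, 1 of the 8 passed, Slc30a1, which was higher, and 6.6% of all genes tested were called. Between the drugs, 2 of the 8 passed, Mt1 and Mt2, both lower with INT-787, and 5.38% of all genes tested were called. A gene was called when edgeR's quasi-likelihood test gave a Benjamini-Hochberg adjusted p of at most 0.05 over all genes tested. Because the genes were selected on these contrasts, nothing is read from their counts against those shares. The share of all genes whose groups did not overlap is not given, so group ranges below are a description only. The median log2 difference of the 8 genes was 0.04 for INT-787, 0.09 for OCA and -0.17 for INT-787 against OCA, beside -0.0010, 0.018 and -0.0065 over all genes tested.

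Mt1 (ENSMUSG00000031765) lies at chr8:94179082-94180327 and Mt2 (ENSMUSG00000031762) at chr8:94172664-94173568 in GRCm38, both on the plus strand and with Mt2 upstream. Their promoters are shown because these genes moved together. Each covers 250 bases before and 50 bases from the RefSeq transcription start (GRCm38.p6), chr8:94178839-94179138 for Mt1 and chr8:94172368-94172667 for Mt2, and capitals mark each match, on either strand, to the core of the metal response element, searched as TGCACNC or TGCGCNC.
Mt1: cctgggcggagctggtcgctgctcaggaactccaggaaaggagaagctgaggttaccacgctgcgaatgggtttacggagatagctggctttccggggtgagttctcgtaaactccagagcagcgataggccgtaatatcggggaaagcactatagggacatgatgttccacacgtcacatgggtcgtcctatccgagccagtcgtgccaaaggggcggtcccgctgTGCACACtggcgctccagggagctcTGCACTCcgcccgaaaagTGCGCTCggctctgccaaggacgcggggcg
Mt2: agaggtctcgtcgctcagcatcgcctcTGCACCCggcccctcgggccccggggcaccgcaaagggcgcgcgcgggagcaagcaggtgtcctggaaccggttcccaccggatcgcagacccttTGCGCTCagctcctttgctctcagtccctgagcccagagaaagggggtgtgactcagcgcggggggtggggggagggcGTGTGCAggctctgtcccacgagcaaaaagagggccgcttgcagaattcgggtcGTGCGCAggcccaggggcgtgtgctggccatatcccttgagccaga
The window of Mt1 held 3 matches and that of Mt2 held 4. Counted as bases before the transcription start, they lay at 23, -2 and -20 in Mt1 and at 223, 128, 50 and -4 in Mt2. Negative positions lie past the start, so not all matches are upstream of it. Of 32851 mouse promoter windows of this length, 25.7% held at least 1 match, 1.97% at least 3 and 0.517% at least 4. Slc30a10 had 3 matches, of which an overlapping pair shares its letters on opposite strands, Slc30a1 had 2, and Mtf1 had 0. Slc39a8 has 2 annotated starts, with 0 matches at the upstream and 1 at the downstream start. The STAT motif TTCNNNGAA, present in 8.30% of windows, and the inverted repeat AGGTCANTGACCT of the FXR half-site, present in 0.00913%, were not found in the windows of these 6 genes. The antioxidant response element core TGACNNNGC, present in 12.4% of windows, was found 1 time each in Mt2, Slc30a1 and the upstream start of Slc39a8. A match describes letters in a window and not binding of a factor.

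Values below are CPM, counts scaled to a common library size by edgeR's trimmed mean of M values. Library totals lay between 1009593 and 18342272 counts in vehicle mice, 10990531 and 22421506 in OCA mice and 12513715 and 22128216 in INT-787 mice, and in 27 of the 28 mice 1 count equals 0.0447 to 0.109 CPM. The exception was vehicle replicate 6, the lowest total, in which 1 count equals 0.919 CPM. Vehicle replicate 5 also stood apart. Over 189 low genes whose exons overlap a gene at least 50 times higher on the opposite strand, it summed to 2835 CPM against 61.0 to 105 CPM in the other 27 mice. Exons of Mt2, Mtf1, Slc30a1 and Slc30a10 overlap opposite-strand exons over 432, 721, 468 and 533 bp, and those of Mt1 and the 3 importers do not. Without these 2 mice together, Mt1 and Mt2 differed from vehicle by -2.12 and -2.78 on the log2 scale with INT-787, and the Slc30a1 call with OCA was lost.

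In vehicle mice Mt1 lay between 88.9 and 457 CPM (median 166), in OCA mice between 82.9 and 225 (median 181) and in INT-787 mice between 22.5 and 87.2 (median 45.8). Each of the 9 INT-787 mice lay below the lowest vehicle mouse, and 8 of the 9 lay below the lowest OCA mouse, with INT-787 replicate 9 reaching into the OCA range. Means were 204 ± 114 CPM with vehicle (SD, n = 10), 159 ± 54.0 with OCA (n = 9) and 47.5 ± 23.5 with INT-787 (n = 9). The log2 difference of INT-787 from vehicle was -2.10 (standard error 0.30, 95% interval -2.71 to -1.50), that is 4.29 times lower, and it ranked 27th from the lowest of the 12580 genes. INT-787 and OCA, given at the same dose for the same time, differed by -1.74 (standard error 0.30, 95% interval -2.35 to -1.14), or 3.35 times lower with INT-787, the 16th lowest. With OCA the difference from vehicle was -0.36 (95% interval -0.93 to 0.22) and did not pass the threshold, and the medians stood in the opposite order to the means.

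In vehicle mice Mt2 lay between 47.8 and 354 CPM (median 57.4), in OCA mice between 27.03 and 112 (median 65.5) and in INT-787 mice between 7.89 and 22.2 (median 15.4). The INT-787 mice overlapped neither group, since the highest of them lay below the lowest vehicle and the lowest OCA mouse. How many of all genes tested separate in this way is not given. Means were 97.9 ± 93.4 CPM with vehicle (SD, n = 10), 64.4 ± 28.5 with OCA (n = 9) and 15 ± 5.71 with INT-787 (n = 9). The log2 difference of INT-787 from vehicle was -2.72 (standard error 0.36, 95% interval -3.45 to -1.995), or 6.60 times lower, the 13th lowest of all genes tested. Against OCA it was -2.10 (standard error 0.35, 95% interval -2.82 to -1.38), or 4.29 times lower, the 4th lowest.

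The wide spread of Mt2 in vehicle mice came with vehicle replicate 9, whose 354 CPM stood above the next vehicle value of 112 CPM. Without that mouse, Mt2 differed from vehicle by -2.22 with INT-787 and Mt1 by -1.88, and both calls were kept. For OCA the same step moved Mt2 from -0.62 (95% interval -1.29 to 0.05) to -0.12 and Mt1 from -0.36 to -0.14, so the difference of OCA from vehicle rested largely on 1 vehicle mouse. The difference of INT-787 from OCA does not use vehicle mice except for the shared estimate of spread and scaling, and it stayed at -2.10 for Mt2 and -1.74 for Mt1.

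**Figure D1:**
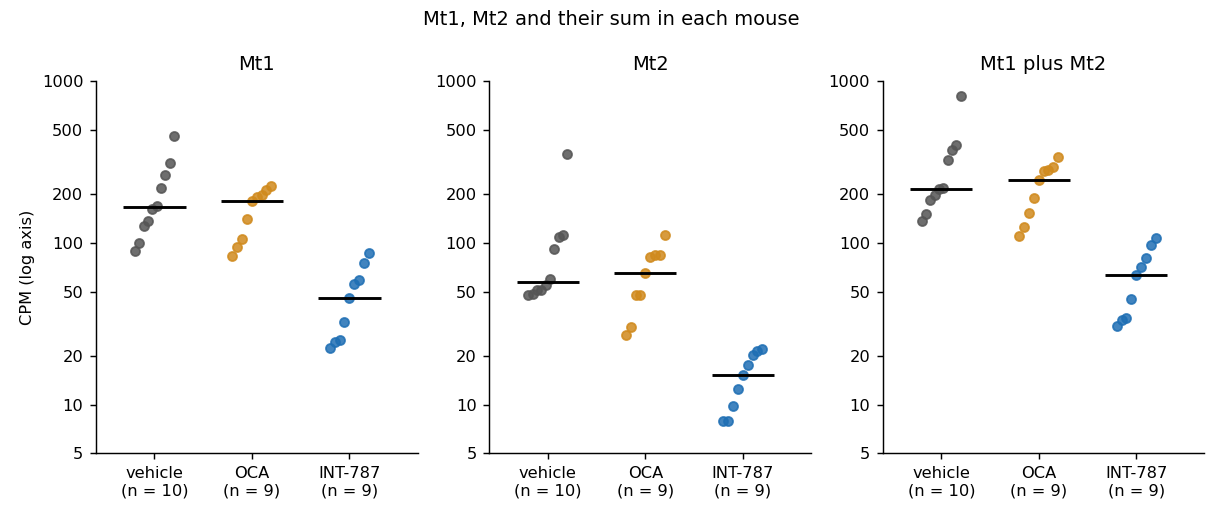
CPM of Mt1, Mt2 and their sum on log axes, with 1 point per mouse in the vehicle (n = 10), OCA (n = 9) and INT-787 (n = 9) groups and a black line at each median. The INT-787 points of Mt2 and of the sum lie below every other point, at or under 22.2 and 107 CPM, and vehicle replicate 9 is the highest point of each panel.

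Taken as a sum, Mt1 plus Mt2 came to 137 to 811 CPM in vehicle mice (median 216), 110 to 337 in OCA mice (median 246) and 30.4 to 107 in INT-787 mice (median 63.3). The INT-787 range ended below both others, at 107 CPM against a lowest OCA value of 110. Mean sums were 301 ± 201 CPM with vehicle (n = 10), 224 ± 81.7 with OCA (n = 9) and 62.5 ± 28.8 with INT-787 (n = 9), so INT-787 mice spanned 3.53-fold from lowest to highest and vehicle mice 5.91-fold.

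Taken apart, Mt1 exceeded Mt2 in each of the 28 mice. The ratio of Mt1 to Mt2 counts was 2.42 ± 0.739 in vehicle, 2.60 ± 0.405 in OCA and 3.09 ± 0.602 in INT-787 mice (mean ± SD), and these ranges overlapped. Its lowest value, 1.29, was in vehicle replicate 9, where both genes were highest, and its highest, 4.31, was in INT-787 replicate 9, which had the highest Mt1 of its group.

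Within groups Mt1 and Mt2 varied together from mouse to mouse. For log2 CPM centred on each group mean, Pearson's r was 0.90 (p = 1e-05, permutation within groups, two-sided) and Spearman's rho 0.89 (p = 1e-05) over 28 mice, with an adjusted p of 0.00021 for each over the 21 relations computed, where 1e-05 is the smallest p the 100000 permutations can give. By group r was 0.87 in vehicle, 0.97 in OCA and 0.94 in INT-787 mice, and without vehicle replicates 9 and 1, the mice farthest from the median, it was 0.89. The other 20 relations set Mt1 or Mt2 against the other 6 genes and against a score for each of 4 gene lists. The score was the mean over a list's genes of centred log2 CPM divided by its SD. These 20 had r from -0.30 to 0.38, with a lowest unadjusted p of 0.0747 and a lowest adjusted p of 0.784 in the same permutation test. No relation common to the 3 groups was therefore detected with Mtf1 or with any of the 5 transporters. By group the signs could differ. Mt1 with Mtf1 had r of -0.11 in vehicle, -0.63 in OCA and 0.48 in INT-787 mice, and Mt2 with the glucocorticoid list had -0.019, -0.83 and 0.58, each over 9 or 10 mice and with no test.

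**Figure D2:**
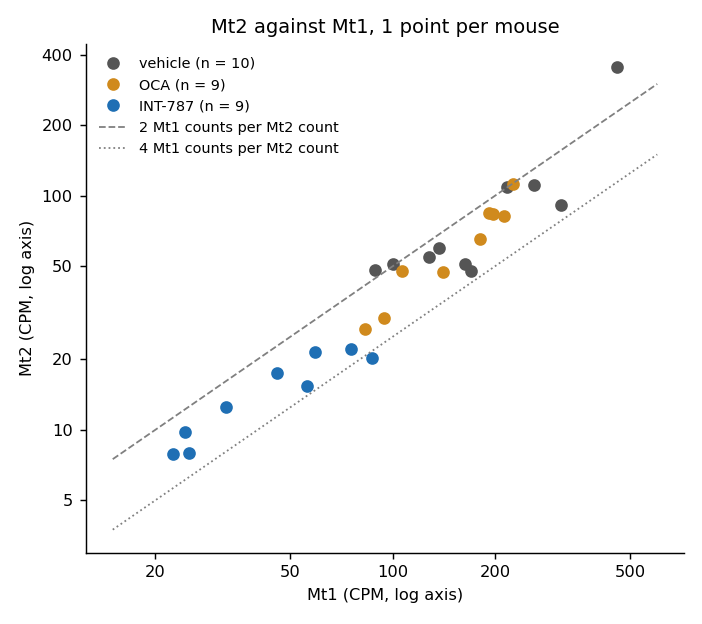
Mt2 against Mt1 in CPM on log axes, with 1 point per mouse, coloured by group, and grey lines at 2 and 4 Mt1 counts per Mt2 count. The points of the 3 groups run along a single band with the INT-787 mice at its lower end, and vehicle replicate 9, with 1.29 Mt1 counts per Mt2 count, lies above the band.

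Mtf1 (ENSMUSG00000028890, chr4:124802104-124849800) encodes the zinc-sensing activator of metallothionein genes. In vehicle mice it lay between 13.9 and 30.3 CPM (median 16.5), in OCA mice between 15.2 and 22.1 (median 17.1) and in INT-787 mice between 14.2 and 20.3 (median 17.2). The 3 groups overlapped throughout, and the highest vehicle value was that of the shallow library of replicate 6, which rests on 33 counts. INT-787 differed from vehicle by 0.02 (95% interval -0.19 to 0.23) and from OCA by -0.07 (95% interval -0.29 to 0.14), and OCA from vehicle by 0.09 (95% interval -0.12 to 0.31). The sign of the INT-787 difference changed with upper-quartile scaling, to -0.04, and these intervals bound any difference in Mtf1 mRNA and say nothing of the protein's activity.

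Among the importers, Slc39a14 (ENSMUSG00000022094, chr14:70303469-70351425, minus strand) encodes ZIP14, a hepatocyte carrier of zinc, manganese and iron that interleukin 6 induces. In vehicle mice it lay between 57.2 and 154 CPM (median 116), in OCA mice between 96.5 and 156 (median 121) and in INT-787 mice between 75.9 and 156 (median 118). The groups overlapped. INT-787 differed from vehicle by 0.07 (95% interval -0.22 to 0.36), OCA by 0.22 (95% interval -0.07 to 0.51), and INT-787 from OCA by -0.15 (95% interval -0.45 to 0.15). The lowest mouse was vehicle replicate 5, without which the INT-787 difference was -0.0082.

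Slc39a4 (ENSMUSG00000063354, chr15:76612383-76617384, minus strand) encodes ZIP4, known for zinc uptake in the intestine, and it was the transporter with the highest counts among the 5. In vehicle mice it lay between 139 and 279 CPM (median 181), in OCA mice between 158 and 299 (median 174) and in INT-787 mice between 105 and 232 (median 164). Of the INT-787 mice, 4 of 9 lay below the lowest vehicle mouse and the other 5 within the vehicle range. The log2 difference of INT-787 was -0.14 (95% interval -0.43 to 0.16) from vehicle and -0.19 (95% interval -0.49 to 0.11) from OCA, and that of OCA from vehicle was 0.06 (95% interval -0.24 to 0.35). Among the intestinal genes Cdx2 and Muc2 had a median of 0 CPM in each group, while Vil1, a villin, had medians of 1.49 to 2.61 CPM and Fabp2, a fatty acid-binding protein, of 117 in vehicle, 145 in OCA and 147 in INT-787 mice. Neither Vil1 nor Fabp2 passed the threshold in the 3 comparisons, but Fabp2 was called higher with INT-787 in 10 of the 38 other settings, among them the replicate block and the fit without vehicle replicates 5 and 6.

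Slc39a8 (ENSMUSG00000053897, chr3:135825279-135888572, plus strand) encodes ZIP8, which takes up zinc and manganese. In vehicle mice it lay between 17.9 and 30.3 CPM (median 27.2), in OCA mice between 20.2 and 35.8 (median 28.5) and in INT-787 mice between 24.5 and 38.6 (median 30.0). Above the highest vehicle mouse lay 4 of the 9 INT-787 mice and 3 of the 9 OCA mice. Its log2 difference with INT-787 was 0.27 (95% interval 0.04 to 0.49), an interval for this gene alone that lay above 0 although the gene did not pass the threshold over all genes, and with OCA it was 0.17 (95% interval -0.05 to 0.39). With sets of adjacent sample numbers as a model term Slc39a8 did pass with INT-787, at 0.22, and 3 rather than 2 of the 8 genes were called. The drugs differed by 0.10 (95% interval -0.13 to 0.32).

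Among the exporters, Slc30a1 (ENSMUSG00000037434, chr1:191906767-191913247, plus strand) encodes ZnT1, the zinc exporter of the plasma membrane. It was barely measured, with 0 to 23 counts per mouse and 259 in all 28. In vehicle mice its level lay between 0 and 0.901 CPM (median 0.393), in OCA mice between 0.372 and 1.31 (median 0.782) and in INT-787 mice between 0.361 and 1.18 (median 0.626). The vehicle mouse at 0 was the shallow replicate 6, in which a count of 0 allows up to 2.76 CPM, and 4 of the 9 OCA mice lay above the highest vehicle mouse. OCA was higher than vehicle by 1.05 on the log2 scale (standard error 0.30, 95% interval 0.45 to 1.68), past the threshold. INT-787 differed from vehicle by 0.61 (95% interval -0.01 to 1.26) and from OCA by -0.44 (95% interval -1.02 to 0.14), so a difference between the drugs was not detected at this depth. The OCA call was lost without OCA replicate 1, OCA replicate 2 or vehicle replicate 10, at 0.98, 0.94 and 0.94, and with the replicate block, at 0.91. It was not tested with at least 10 counts in every mouse or with only the 2 groups compared.

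Slc30a10 (ENSMUSG00000026614, chr1:185454848-185468762, plus strand) encodes ZnT10, best known for manganese export into bile. In vehicle mice it lay between 4.72 and 23.8 CPM (median 13.2), in OCA mice between 4.16 and 25.5 (median 15.8) and in INT-787 mice between 10.3 and 31.5 (median 14.5). Of the INT-787 mice, 3 of 9 lay above the highest vehicle mouse, at 26.6 CPM or more, and the other 6 lay at 15.5 CPM or less. The log2 difference was 0.33 for INT-787 (95% interval -0.23 to 0.90), 0.09 for OCA (95% interval -0.48 to 0.66) and 0.24 between the drugs (95% interval -0.34 to 0.81), and each of these wide intervals includes 0.

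**Figure D3:**
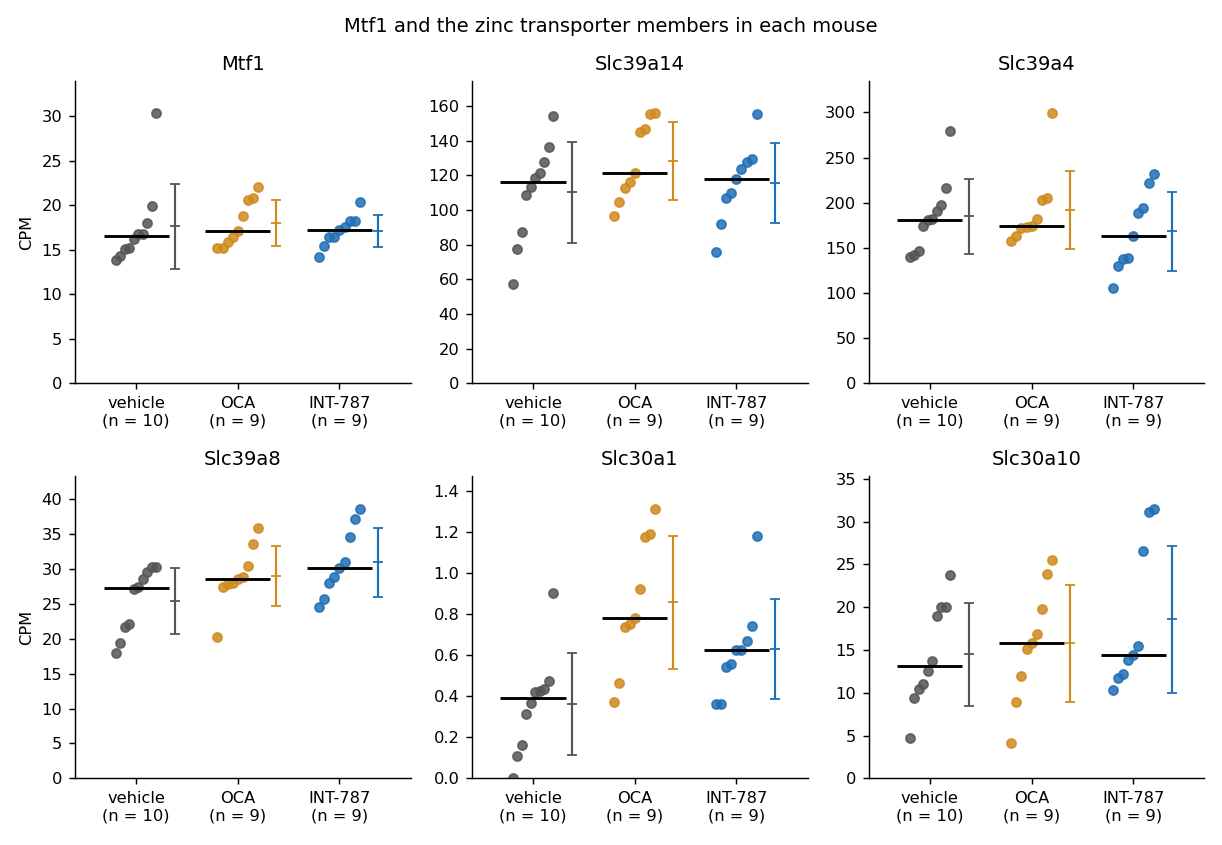
CPM of Mtf1 and the 5 zinc transporter genes, each panel on its own linear axis from 0, with 1 point per mouse, a black line at the median and a coloured bar for the mean ± SD. The 3 groups overlap in each panel, and Slc30a1 lies near or under 1 CPM throughout.

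**Figure D4:**
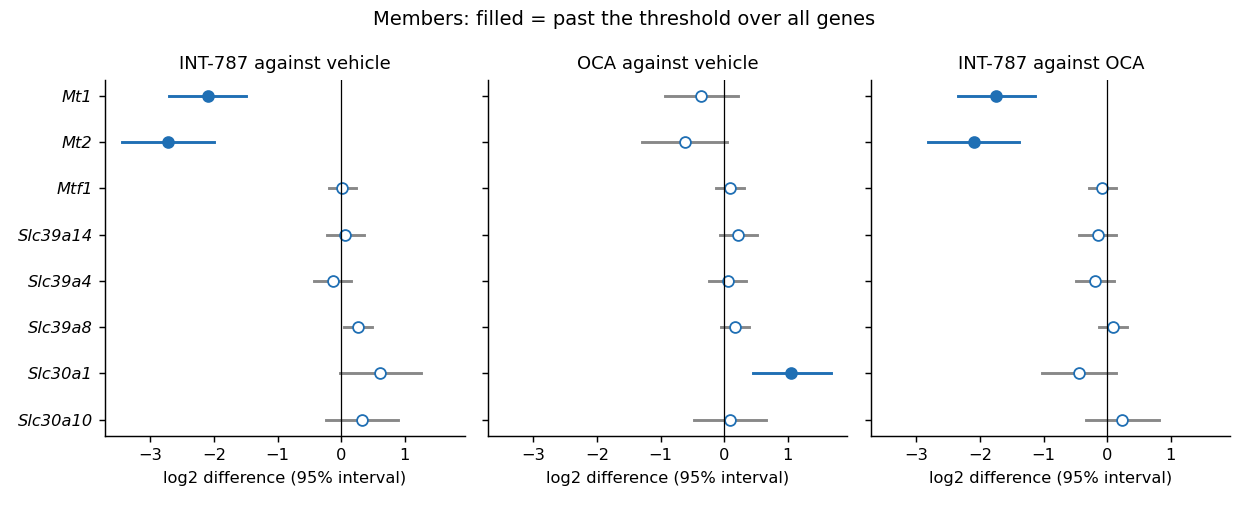
Log2 differences of the 8 genes with 95% intervals in the 3 comparisons, where filled points passed the threshold over all genes tested. Mt1 and Mt2 lie between -2.72 and -1.74 in both comparisons that include INT-787, and the other 6 genes lie between -0.44 and 0.61 in those comparisons.

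Per kilobase of transcript, so that levels of different genes can be set side by side, the mean order in vehicle mice was Mt1 at 371 CPM per kb, Mt2 at 192, Slc39a4 at 67.2, Slc39a14 at 22.4, Slc39a8 at 7.19, Slc30a10 at 2.48, Mtf1 at 2.31 and Slc30a1 at 0.0689. Each gene stood above the next in 10 of 10 vehicle mice except Slc30a10 over Mtf1, which held in 6 of 10 and within their spread. With OCA the order of means was the same, with Mt2 above Slc39a4 in 7 of 9 mice and Slc30a10 above Mtf1 in 4 of 9. With INT-787 Slc39a4, at 61.1 CPM per kb, stood above Mt2, at 29.4, in 9 of 9 mice. Mt1, at 86.5, was above Slc39a4 in 6 of 9 INT-787 mice and Mt2 above Slc39a14, at 23.4, in 5 of 9, so neither pair was separated beyond the spread.

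In the wider families, the other metallothioneins were close to undetected, with 35 counts of Mt3 in 14 mice and 10 counts of Mt4 in 7 mice over the series, and they were not tested. Over all genes tested 10.2% rose and 9.48% fell with INT-787, 4.15% rose and 2.45% fell with OCA, and between the drugs 2.19% were higher and 3.19% lower with INT-787. Upper-quartile scaling moved these to 7.63% and 12.7% with INT-787, 3.24% and 2.96% with OCA, and 1.81% and 3.82% between the drugs, so that 37.5% rather than 51.7% of the INT-787 calls and 52.3% rather than 62.9% of the OCA calls were rises. The counts of each list below stand beside these shares, and, where one is given, beside their range over the 38 other settings. The lists were chosen with earlier results of these data known, so nothing is read from their counts against the shares. Of 14 ZIP genes 12 were tested, 3 fell with INT-787 (1 to 3 over the other settings, and 2 without vehicle replicate 5), 1 fell with OCA (0 to 1) and 0 rose (0 to 1 with INT-787). Slc39a5 (ZIP5) went from 9.76 ± 2.95 CPM with vehicle (n = 10) to 4.27 ± 1.13 with OCA (n = 9) and 5.21 ± 3.11 with INT-787 (n = 9), log2 differences of -1.22 with OCA (standard error 0.26, adjusted p = 0.0018, edgeR) and -0.93 with INT-787 (standard error 0.25, adjusted p = 0.0082). The drugs differed in Slc39a5 by 0.29 (adjusted p = 0.63). Slc39a6 (ZIP6) fell with INT-787 from 4.79 ± 0.877 to 3.06 ± 0.786 CPM, by 0.68 on the log2 scale (adjusted p = 0.0013, edgeR), and INT-787 differed from OCA by -0.60 (adjusted p = 0.016), a call lost with sets of adjacent sample numbers as a term, at -0.52 (adjusted p = 0.062). Slc39a13 (ZIP13), whose exons overlap Psmc3 on the opposite strand over 215 bp, fell by 0.30 with INT-787 (adjusted p = 0.043, edgeR), a call lost in 16 of the 38 other settings, the replicate block among them. Of 10 ZnT genes 7 were tested, and Slc30a1 with OCA was the single call in the 3 comparisons by edgeR and by DESeq2. With the replicate block that call was lost and Slc30a6 (ZnT6) was called with INT-787, at 0.28 (adjusted p = 0.027, edgeR) where the fit without the block gave 0.21 (adjusted p = 0.11), and over the other settings 0 to 1 ZnT genes rose with each drug. With INT-787 1 of the 7 had an unadjusted p under 0.05 and between the drugs 0 did.

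**Figure D5:**
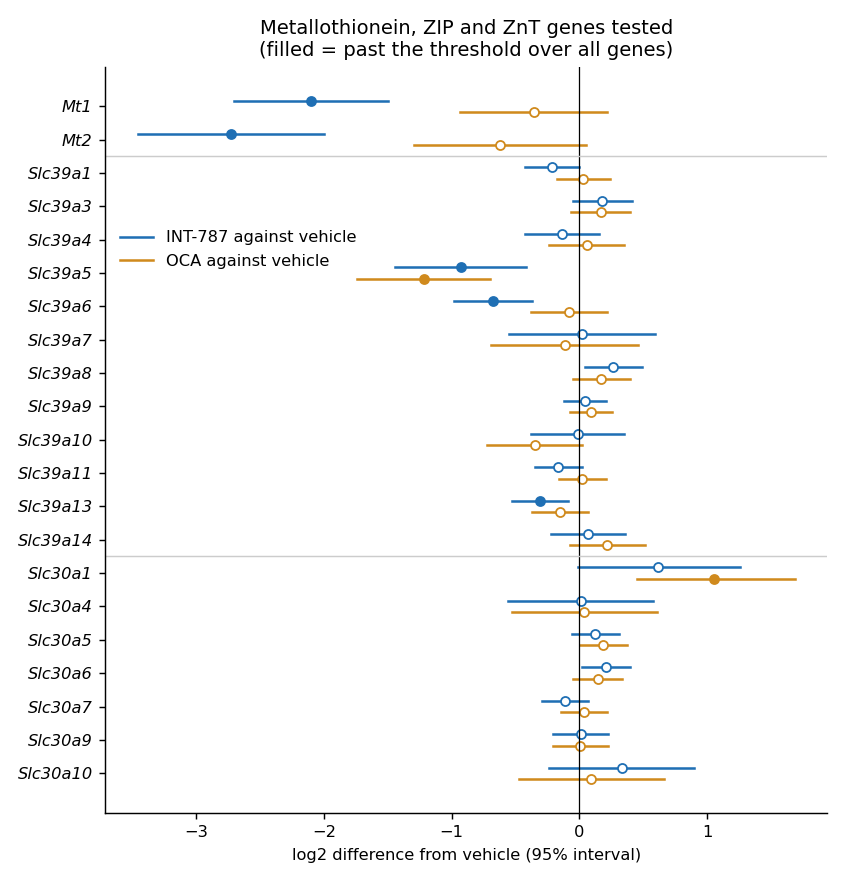
Log2 differences from vehicle, with 95% intervals, of the 21 metallothionein, ZIP and ZnT genes tested, for INT-787 in blue and OCA in orange, with points filled where the gene passed the threshold over all genes. Mt1 and Mt2 with INT-787 lie at -2.10 and -2.72, and the next lowest point is Slc39a5 with OCA at -1.22.

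Acute-phase genes, which interleukin 6 and related cytokines induce in hepatocytes and which share that input with metallothioneins, were lower with INT-787 for 8 of the 16 tested and higher for 1, Orm3. Of all genes tested 9.48% were lower and 10.2% higher in that comparison, and the median log2 difference of the list was -0.36 beside -0.0010. This list too was chosen with earlier results known, so these values are a description and no excess is read from them. Over the other settings 7 to 9 were lower and 0 to 2 higher, with 9 and 0 under upper-quartile scaling, where 12.7% of all genes were lower. With OCA 0 of the 16 fell by edgeR or DESeq2, or at an unadjusted p under 0.05, and 2 rose (1 to 5 over the other settings, with 5 under the replicate block), beside 4.15% of all genes, Itih4 by 0.50 (adjusted p = 0.00091, edgeR) and Fgb by 0.36 (adjusted p = 0.038), a call lost in 18 of the 38 other settings. The Orm3 call was lost in 10. Between the drugs 9 of 16 were lower with INT-787 (8 to 9), beside 3.19% of all genes. The serum amyloid gene Saa2 had 158 ± 71.9 CPM with vehicle (n = 10), 174 ± 42.7 with OCA (n = 9) and 49.2 ± 14.1 with INT-787 (n = 9), -1.68 against vehicle (adjusted p = 7.3e-07, edgeR) and -1.82 against OCA (adjusted p = 2.6e-06). Orm2, an acid glycoprotein, differed by -1.58 from vehicle (adjusted p = 2.9e-08) and by -1.34 from OCA (adjusted p = 6.9e-06), and Lcn2, which binds bacterial siderophores, by -1.21 (adjusted p = 0.00038) and -1.56 (adjusted p = 0.00013). Within groups the score of this list, a mean over its genes, had r = 0.38 with Mt1 (permutation p = 0.0747, adjusted p = 0.784). By group r was 0.60 in vehicle, -0.50 in OCA and 0.40 in INT-787 mice.

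Of 10 genes that glucocorticoids induce, 2 rose (Tat and Tsc22d3) and 2 fell (Cdkn1a and Dusp1) with each drug, where 19.6% of all genes were called with INT-787 and 6.6% with OCA. Between the drugs 0 of the 10 passed the threshold by edgeR or DESeq2, and 0 had an unadjusted p under 0.05. Over the other settings the rising count was 1 to 4 with INT-787 and 0 to 2 with OCA, and without vehicle replicates 5 and 6 it was 1 and 0. The Tsc22d3 call was lost in 19 settings with INT-787 and 25 with OCA, that of Dusp1 in 3 and 8, and that of Tat with OCA in 3, the replicate block among them. Tat, tyrosine aminotransferase, rose by 0.75 with INT-787 (adjusted p = 0.0017, edgeR) and 0.61 with OCA (adjusted p = 0.023). In 13 genes of the oxidative stress response to NRF2, which also acts on metallothionein genes, 5 rose and 3 fell with INT-787 (2 to 4 fell over the other settings) and 3 rose and 2 fell with OCA (2 to 3 and 1 to 3). Between the drugs 2 were higher with INT-787 (1 to 3) and 0 lower, beside 2.19% and 3.19% of all genes. They were Gstm1 by 0.63 (adjusted p = 0.0034, edgeR) and Gsta4 by 0.53 (adjusted p = 0.027), a call lost in 5 of the 38 other settings. The glutathione transferase Gsta4 rose by 1.84 with INT-787 (adjusted p = 5.1e-11, edgeR) and by 1.30 with OCA, and the antioxidant gene Srxn1 fell by 0.36 with INT-787 (adjusted p = 0.013) and 0.45 with OCA (adjusted p = 0.0052).

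Among 14 copper-handling genes, 3 rose (Steap3, Sco2 and Atp7b) and 2 fell (Loxl2 and Steap4) with INT-787, where 10.2% of all genes rose and 9.48% fell, and Steap3 and Cp rose with OCA, where 4.15% rose. Over the other settings 2 to 3 rose with INT-787 and 1 to 3 with OCA, where the Cp call was lost in 10. Between the drugs 2 of the 14 were lower with INT-787 (2 in each other setting) and 0 higher (0 to 1), beside 3.19% and 2.19% of all genes. Loxl2 differed by -0.99 (adjusted p = 0.00013, edgeR) and Steap4 by -0.56 (adjusted p = 0.0060). Steap3, a metalloreductase, had 41.3 ± 7.43 CPM with vehicle (n = 10), 69.4 ± 10.1 with OCA (n = 9) and 87.7 ± 19.96 with INT-787 (n = 9). Atp7b, which loads copper into ceruloplasmin and bile, rose by 0.51 with INT-787 (adjusted p = 0.016, edgeR) and had 0.24 with OCA (adjusted p = 0.43). Among 9 genes of manganese handling, which include Slc39a14, Slc39a8 and Slc30a10, 1 fell with INT-787, the metal importer Slc11a2 by 0.40 (adjusted p = 0.015), and 0 passed by edgeR or DESeq2 with OCA or between the drugs, where 1 had an unadjusted p under 0.05 in each comparison. Over the other settings 0 to 2 of these 9 rose with INT-787, 0 to 1 rose with OCA and 0 to 1 was lower with INT-787 than with OCA.

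Of 15 enzymes that hold zinc in their active site, 5 rose and 4 fell with INT-787 (2 to 4 fell over the other settings), beside 10.2% and 9.48% of all genes. With OCA 3 rose (2 to 3) and 4 fell (2 to 4), beside 4.15% and 2.45%, and between the drugs 2 were higher (0 to 2) and 1 lower (0 to 1) with INT-787. The median log2 difference of these enzymes was 0.03 with INT-787 and 0.09 with OCA. The carbonic anhydrase Car3 went from 1924 ± 411 CPM with vehicle (n = 10) to 895 ± 444 with OCA (n = 9) and 827 ± 136 with INT-787 (n = 9), and the alcohol dehydrogenase Adh4 from 60.8 ± 13.1 to 122 ± 28.8 and 130 ± 24.1 CPM. The collagenase Mmp13 fell by 1.45 with INT-787 (adjusted p = 3.8e-06, edgeR) and by 0.70 with OCA (adjusted p = 0.026), a call lost in 5 of the 38 other settings.

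Markers of the cell types a liver piece holds were summed beside these results. Hepatocyte markers were present in every mouse, at 80591 to 161232 CPM with vehicle, 127135 to 220194 with OCA and 116496 to 191208 with INT-787, with 3 of 9 genes higher with each drug (2 to 3 with INT-787 and 1 to 4 with OCA over the other settings, with 1 for OCA under upper-quartile scaling). Markers of other cells were counted against the 9.48% of all genes that were lower with INT-787. Cholangiocyte markers, 2 of 7 lower (Spp1 and Cftr, and 1 to 4 over the other settings), summed to 515 to 831 CPM with vehicle, 473 to 1664 with OCA and 365 to 575 with INT-787. Stellate cell markers, 4 of 10 lower (4 to 6), summed to 1059 to 1554, 969 to 1991 and 578 to 1116 CPM in the same order, macrophage markers, 3 of 10 lower (2 to 4), to 713 to 941, 528 to 1186 and 447 to 932, and endothelial markers, 3 of 8 lower (1 to 6), to 216 to 404, 192 to 298 and 144 to 294. Upper-quartile scaling, under which 12.7% of all genes were lower, gave 6 lower for stellate and 6 for endothelial markers, and the endothelial count was 1 without vehicle replicate 2 or without INT-787 replicate 3, 6 or 8. Lymphocyte and neutrophil markers summed to 4.42 to 22.2 CPM over the 28 mice with 0 of 7 called by edgeR or DESeq2 (1 at an unadjusted p under 0.05 with each drug) and Ly6g at a median of 0, and 6 of 8 pancreas and intestine markers had a median of 0 in each group. The sum of these 8 was 86.2 to 175 CPM with vehicle, 101 to 206 with OCA and 110 to 215 with INT-787, nearly all of it Fabp2. The part of these shifts in the lower Mt1 and Mt2 was not tested. Of 5 FXR target genes tested, 3 rose and 2 fell with each drug, with Nr0b2 higher by 1.62 with INT-787 and 1.17 with OCA.

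The genes that followed the summed Mt1 and Mt2 most closely from mouse to mouse within groups, among 9348 genes with a mean of at least 5 CPM, were Wfdc2 (r = 0.64), Tmem37 (0.63), Gpat3 (0.62), Det1 (0.62), Cd63 (0.61), Rps27 (0.60), Mgst3 (0.59) and Endog (0.58), each over 28 mice. These values are the top of a ranking of all genes and are given with no test. None reached the 0.90 of Mt1 with Mt2. Without vehicle replicate 9 the 8 values lay between 0.56 (Rps27) and 0.71 (Tmem37), and Tmem37 and Cd63 (0.70) stood above Wfdc2 (0.68). Of these 8 genes, Cd63, a lysosomal membrane protein, differed by -0.94 (adjusted p = 0.00017, edgeR) from vehicle and by -0.64 (adjusted p = 0.026) from OCA with INT-787, and Wfdc2 by -0.50 from vehicle (adjusted p = 0.014), while Mgst3 fell with OCA by 0.63 (adjusted p = 0.0037).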

How the data were processed

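Liver poly(A) RNA of 28 mice was sequenced from stranded libraries. The authors aligned the reads with STAR to GRCm38 with Ensembl release 89 annotation, and deposited raw counts of reads per gene without normalization. The counting program, its use of strand and its treatment of multiply mapped reads are not given in the sources used here. Groups came from the sample labels, and 0 columns belonged to other samples. Symbols came from GENCODE M21, which matched 21858 of 21935 genes.

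From the counts, genes were kept by filterByExpr (12580 genes) and tested with edgeR 4.0.16 (R 4.3.3) by TMM, glmQLFit and glmQLFTest with vehicle, OCA and INT-787 as the 3 levels of 1 model, with Benjamini-Hochberg adjustment over all genes tested and a threshold of 0.05. Standard errors and 95% intervals are for single genes and are not adjusted. Total counts per mouse had a median of 14864947. Intervals of differences rest on the spread between mice, the floor for a count of 0 covers counting error only, and 1 library per mouse was measured. Between mice of a group, chi-square per gene was at least 2.97, so no pair appeared to be the same library. Levels per kilobase used the longest APPRIS principal transcript. The fit was tested on simulated data.

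The members and gene lists were chosen with earlier results of these data known. Named genes were the 8 members, Mt3 and Mt4 by counts, up to 6 called genes per list with the largest differences, and the 8 genes nearest to summed Mt1 and Mt2. Itih4, Fgb, Orm1, Orm3, Socs3, Lbp, Il6ra, Stat3, Cebpd, Slc30a6, Vil1 and Fabp2 were named after their values were seen. The lists covered metallothioneins, ZIP and ZnT genes, copper and manganese handling, acute-phase, glucocorticoid and NRF2 genes, zinc enzymes, FXR targets and cell type markers, of which the hepatocyte list matched 9 of 10 symbols. Promoters came from RefSeq (GRCm38.p6), with entries for 6 of the 8 genes, and Slc39a14 and Slc39a4 were not among them.

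Alternatives were DESeq2 size factors or upper-quartile scaling in edgeR, no filter or a minimum of 10 counts in each mouse, DESeq2 1.42.0, limma-voom 3.58.1, only the 2 groups compared, the replicate number as a block, blocks of adjacent sample numbers as a model term, and each mouse left out in turn. Replicate numbers follow the sets of adjacent sample numbers for replicates 1 to 3, and later replicate numbers group mice of different sets. Leaving out vehicle replicates 5 and 6 together was added after seeing the data.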

Additional observations from a re-analysis of the deposited data

Results flagged for a closer look

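In each group, the highest and lowest mouse was compared with its nearest neighbour as a share of the group's range (Dixon's test), over 33 sets of values, of which 7 were marked where chance marks about 1 in 20. Vehicle replicate 9 had the highest Mt2, 354 CPM against 112 CPM in the next mouse, and the highest sum of Mt1 and Mt2, 811 CPM against 405 CPM. Mtf1 was highest in vehicle replicate 6, at 30.3 CPM, and that mouse also had the lowest total of its group, 1009593 counts against 9313260 in the next. Slc39a4 reached 299 CPM in OCA replicate 8, where the next mouse had 205 CPM. Slc30a1 was far from its neighbour in vehicle replicate 2, at 0.901 CPM against 0.476, and in INT-787 replicate 6, at 1.18 CPM against 0.743, both on few counts. The cause of each was not tested.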

How the results depend on the processing

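The calls of Mt1 and Mt2 with INT-787, against vehicle and against OCA, were kept under each of the 38 other settings run, 28 of which left out 1 mouse. Over those 28 fits the INT-787 difference from vehicle ranged from -2.26 to -1.88 for Mt1 and from -2.81 to -2.22 for Mt2. The count of members called with OCA went from 1 to 0 with at least 10 counts in every mouse and with only the 2 groups compared, since Slc30a1 was not tested there, and without vehicle replicates 5 and 6 together, and it was 0 to 1 over the fits without 1 mouse. With the replicate number as a block the OCA count was also 0, with Slc30a1 at 0.91. Replicate numbers follow sets of adjacent sample numbers for replicates 1 to 3 and slip after that. Vehicle replicate 5, for one, shares its set with replicate 4 of OCA and of INT-787. Of same-numbered pairs, 11 of 27 had correlated deviations over 0.1, and 9 of 28 mice correlated best with their own number. These values do not settle whether mice were paired. The calls of the other 7 members did not change under the block. In sets of adjacent sample numbers, 13 of 25 pairs had correlated deviations over 0.1 (-0.20 to 0.43, median 0.11) against 50 of 236 other pairs between groups (median -0.0068), so not every set paired. With the set as a factor, Slc39a8 with INT-787 passed the threshold at 0.22, and Slc39a6 was no longer called between the drugs. Signs changed for values near 0, where the cause was not tested. Mtf1 with INT-787 was -0.041 with upper-quartile scaling, -0.0084 with at least 10 counts in every mouse, -0.015 with the block and -0.014 to 0.079 without 1 mouse. Slc39a4 and Slc30a10 with OCA were -0.020 and -0.090 with the sample number set, and -0.048 to 0.13 and -0.015 to 0.22 without 1 mouse. Slc39a14 with INT-787 was -0.011 without vehicle replicates 5 and 6 together and -0.0082 to 0.13 without 1 mouse. Depth limits Slc30a1, Mt3 and Mt4.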
